A study of Drosophila melanogaster with 2 samples.

Results

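The Cpr genes of the fly encode cuticular proteins. Their start sites were examined for peaks of the zinc finger protein CG15073, tagged with GFP, in fly embryos. The members were the 70 genes of the dm6 annotation whose symbol is Cpr followed by a number, the number being the cytological position of the gene, out of 13945 protein-coding genes on the 6 arms X, 2L, 2R, 3L, 3R and 4. The gene named Cpr alone, which encodes cytochrome P450 reductase, was left out by that rule. All 70 were protein-coding, with 35 on 3L, 21 on 2R, 5 on 2L, 5 on 3R, 4 on X and 0 on 4. CG15073 was followed by chromatin immunoprecipitation and sequencing (ChIP-seq), in which an antibody, here against GFP, recovers the DNA that the tagged protein holds. The series had 1 group, transgenic flies with GFP at the C-terminal end of CG15073, collected as whole embryos of both sexes aged 0 to 24 h, and 2 biological replicates of it, numbered 3 and 4. No other genotype or treatment was analysed here, so each comparison set the Cpr genes beside other genes of the same libraries.

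The insect cuticle is a layered sheet of chitin fibres and proteins that the epidermis lays down at its outer face. Most Cpr proteins carry the Rebers and Riddiford (R&R) consensus, a stretch that binds chitin, and different members serve soft and hard cuticle at different stages. Many of the genes arose by tandem duplication and still stand in rows of close neighbours, and in embryos cuticle is made late, after the body segments have formed. Expression was not measured here. Whole embryos mix all tissues, so a site held in the epidermis alone and a site held weakly in many cells cannot be told apart.

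A peak is a stretch where recovered DNA piles up, and its summit is the highest point. The peaks were given in 4 lists on dm6. The IDR list held the 1445 peaks that the authors kept by their irreproducible discovery rate step. The pooled list held 23030 relaxed peaks of both replicates together, and the replicate 3 and replicate 4 lists 30000 relaxed peaks each. The relaxed lists mix peaks with background, the pooled one by its label and the replicate ones by their length. The deposited signal of a peak, its strength on an unstated scale, ran from 66.5 to 9689 in the IDR list and had medians of 28.3 in the pooled list, 15.7 in the replicate 3 list and 15.2 in the replicate 4 list. Read depth is unknown, and signals and ranks were read within a list only. A gene counted as having a summit if at least 1 fell no more than 500 bp from any of its annotated start sites. Intervals are exact 95% binomial intervals and cover the counting of genes only, not the spread between embryos.

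The promoters of 4 members with a pooled summit are shown first, because TATAAA before the start site was in 60% of Cpr genes and in 10.3% of other protein-coding genes. Each run spans 60 bases before the start site and 20 bases from it on, read from the Release 6 assembly in the gene's direction. Capitals mark the letters TATAAA before the start site and the first transcribed base. Cpr64Ad and Cpr65Av have those letters, beginning at -22 and -27 bases from the start site. Cpr76Bc and Cpr65Ay do not have them in this stretch.
Cpr64Ad, core promoter, chr3L:4215319-4215398 (plus strand): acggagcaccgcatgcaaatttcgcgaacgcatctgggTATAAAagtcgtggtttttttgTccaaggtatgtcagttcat
Cpr65Av, core promoter, chr3L:6139955-6140034 (minus strand): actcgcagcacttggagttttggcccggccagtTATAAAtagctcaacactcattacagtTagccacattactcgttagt
Cpr76Bc, core promoter, chr3L:19520885-19520964 (plus strand): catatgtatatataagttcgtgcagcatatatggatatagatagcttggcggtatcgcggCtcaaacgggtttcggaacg
Cpr65Ay, core promoter, chr3L:6158611-6158690 (minus strand): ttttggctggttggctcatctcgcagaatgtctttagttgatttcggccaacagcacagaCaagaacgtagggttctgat

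The sequence beneath the pooled summits follows for 3 of these members, as the stretch of a Cpr promoter region that the lists point to. The deposited -log10 q-value is higher for a peak less likely to be background. It ran from 0.0288 to 0.323 over the 8 pooled summits at Cpr genes, and from 2.03 to 3.24 in the IDR list. Its pooled median was 0.185 at Cpr genes and 0.263 at other genes. Binding at these summits is thus not established. Each run is the summit with 50 bases on either side, in the gene's direction. The run at Cht7, a chitinase gene outside the Cpr set that did have an IDR summit, is given for comparison. Capitals mark any match to 6 short motifs named further on, and only the Cpr76Bc run held one, TATAAA, on each strand. The share of G and C was 43.6% at Cpr64Ad, 22.8% at Cpr76Bc, 32.7% at Cpr65Av and 38.6% at Cht7.
Cpr64Ad, pooled summit, chr3L:4215090-4215190 (plus strand): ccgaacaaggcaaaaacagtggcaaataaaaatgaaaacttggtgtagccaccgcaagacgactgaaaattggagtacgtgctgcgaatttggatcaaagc
Cpr76Bc, pooled summit, chr3L:19520489-19520589 (plus strand): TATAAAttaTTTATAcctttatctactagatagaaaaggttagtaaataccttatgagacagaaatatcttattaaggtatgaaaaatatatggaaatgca
Cpr65Av, pooled summit, chr3L:6140379-6140479 (minus strand): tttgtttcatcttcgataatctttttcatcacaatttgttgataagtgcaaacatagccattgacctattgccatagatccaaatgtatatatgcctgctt
Cht7, IDR summit, chr3L:3107070-3107170 (minus strand): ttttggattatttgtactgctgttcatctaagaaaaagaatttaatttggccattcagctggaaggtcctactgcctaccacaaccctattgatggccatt

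No Cpr gene had an IDR summit at a start site. The count was 0 of 70, which allows a share of up to 4.29% when 3 counts are set as the limit (exact interval up to 5.13%), against 941 of 13875 other protein-coding genes (6.78%, 6.37 to 7.21). Genes whose 500 bp windows overlap those of another protein-coding gene were also left out. The IDR count was then 0 of 64 (exact interval up to 5.6%), against 3.76% of other genes, which lies inside that interval. In the pooled relaxed list 8 of 70 Cpr genes had a summit (11.4%, 5.07 to 21.3), against 33.7% of other genes. The replicates differed, and their extraction protocols are separate documents per the labels. The part of the protocols in that difference was not tested. In the replicate 3 list 13 Cpr genes had a summit (18.6%, 10.3 to 29.7), against 44.7% of other genes. In the replicate 4 list 20 Cpr genes had a summit (28.6%, 18.4 to 40.6), against 29.2% of other genes, a share close to the background. The Cpr share was thus below that of other genes in the pooled and replicate 3 lists, and no such gap appeared in replicate 4.

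**Figure D1:**
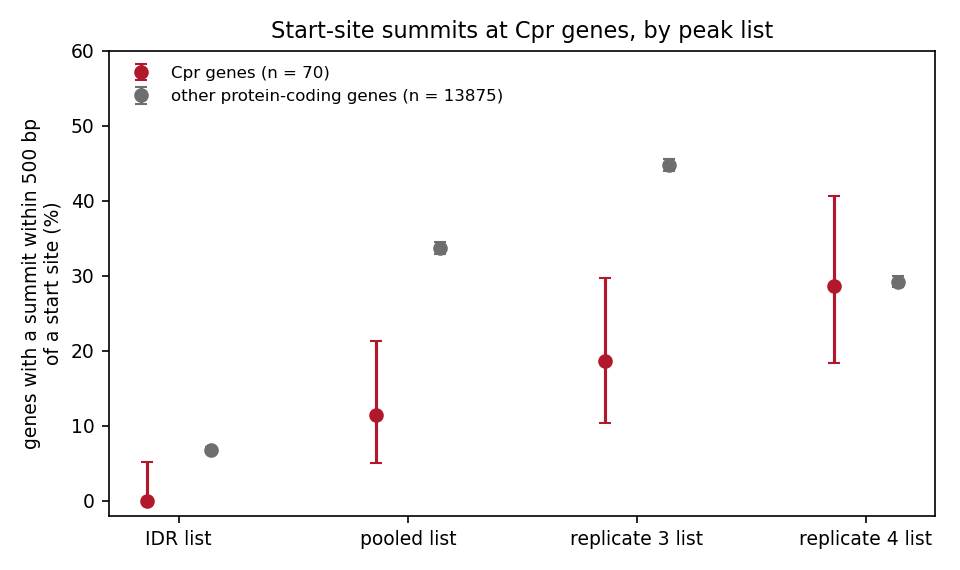
Share of genes with a start-site summit (at most 500 bp away) in each of the 4 lists, for the 70 Cpr genes (left of each pair) and the 13875 other protein-coding genes; points are shares and bars exact 95% binomial intervals. The Cpr share was 0% in the IDR list and below that of other genes in the pooled and replicate 3 lists, while in the replicate 4 list it was 28.6% beside 29.2%.

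Between the replicates, 29 Cpr genes had a summit in at least 1 list (41.4%, 29.8 to 53.8), against 54.2% of other genes. Only 4 had one in both lists (5.71%, 1.58 to 14.0), against 19.8% of other genes. As a share of the genes found in either list, those found in both made up 13.8% for Cpr genes and 36.5% for other genes. Cpr47Ec was the only one of the 4 whose replicate summits lay within 200 bp of each other, at a gap of 78 bp. The gaps were 402 bp at Cpr65Av and 583 bp at Cpr65Au. At Cpr73D the summits lay 15344 bp apart, at different start sites of that gene. Of the 2746 other genes found in both lists, 82.0% had summits within 200 bp of each other, with a median gap of 63 bp.

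No member was added by the pooled list, so 29 Cpr genes had any relaxed summit (41.4%, against 55.6% of other genes) and 41 had none. Among those 29, 0 had an IDR summit, which allows up to 10.3% (exact interval up to 11.9%). The 0 of 70 above fixed that count, as it did the IDR count of every other subset of Cpr genes given below. Of the 7708 other genes with a relaxed summit, 12.2% had an IDR summit. By list, 11 members had a summit in replicate 4 alone (Cpr5C, Cpr47Ef, Cpr47Eg, Cpr49Ab, Cpr49Ac, Cpr49Ae, Cpr49Af, Cpr65Az, Cpr65Ea, Cpr66Cb and Cpr97Ea). Another 8 had one in replicate 3 alone (Cpr30F, Cpr47Ed, Cpr51A, Cpr65Eb, Cpr67B, Cpr72Ea, Cpr78Ca and Cpr100A). Cpr65Au and Cpr73D had one in both replicates and none in the pooled list, and the remaining 8 had a pooled summit. All 3 genes of the 62B row (Cpr62Ba, Cpr62Bb and Cpr62Bc) were among the 41 members with none.

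No relaxed summit at a Cpr gene was among the strongest of its list. The best rank that a Cpr gene reached was 5005 of 23030 in the pooled list (Cpr64Ad), 6561 of 30000 in replicate 3 (Cpr47Ed) and 2204 of 30000 in replicate 4 (Cpr76Bc), all beyond rank 1445. All 1445 IDR summits sit at the top of the pooled ranking, so the pooled ranks restate the IDR count. In replicate 3 the strongest summits per gene had a median signal of 13.3 over the 13 Cpr genes and of 20.1 over the other genes, and 30.8% and 71.6% of those summits ranked above the middle of the list. In replicate 4 the medians were 14.8 and 17.6, and 45% and 66.8% ranked above the middle. In the pooled list the medians were 33.0 and 35.2, and 87.5% (7 of 8) and 71.0% ranked above the middle, so there the Cpr genes had the larger share. The Cpr genes with a replicate 4 summit, although as frequent as other genes there, had a median rank of 16527 in that list, against 8817 for other genes. Median -log10 q-values at Cpr genes were 0.134 in replicate 3 and 0.0783 in replicate 4, against 0.547 and 0.106 at other genes.

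**Figure D2:**
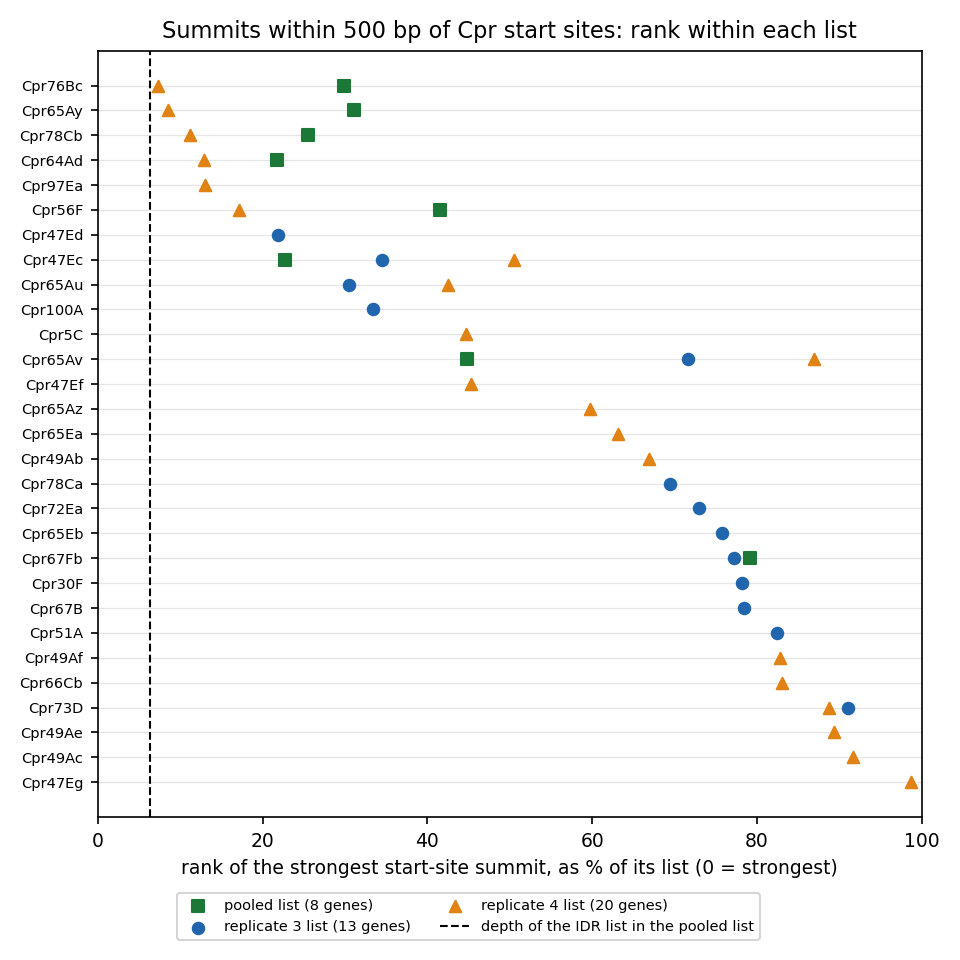
Rank of the strongest start-site summit of each of the 29 Cpr genes with a relaxed summit, as a percent of its list (0 is the strongest peak); squares are the pooled list (8 genes), circles replicate 3 (13 genes) and triangles replicate 4 (20 genes), and the dashed line marks how deep the 1445 IDR peaks reach in the pooled list. Every symbol lies to the right of that line, and only Cpr47Ec and Cpr65Av carry all 3 symbols.

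The 8 Cpr genes with a pooled summit were Cpr64Ad, Cpr47Ec, Cpr78Cb, Cpr76Bc, Cpr65Ay, Cpr56F, Cpr65Av and Cpr67Fb in the order of their pooled signal. Cpr64Ad, at 3L:4215379-4216414 on the plus strand, had a pooled signal of 36.9 (rank 5005) with the summit at -239 bp from its start site (negative values are upstream), inside an intron of CG43367. Replicate 4 had a summit there at -129 bp with a signal of 21.5 (rank 3883), and replicate 3 had none within 500 bp. Its runs are printed above, and with Cpr65Av and Cpr56F it is one of 3 members that had both a pooled summit and TATAAA in the 50 bases before the start site.

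Cpr47Ec, at 2R:11259106-11259976 on the minus strand, had a pooled signal of 36.3 (rank 5226) at -426 bp, between genes. It had the closest pair of replicate summits of any Cpr gene, at -494 bp in replicate 3 (signal 18.1, rank 10329) and -416 bp in replicate 4 (signal 15.2, rank 15136). Neither replicate summit was near the top of its list. Cpr65Av, at 3L:6139223-6139974 on the minus strand, was the other gene found in all 3 relaxed lists. Its pooled signal was 29.2 at -455 bp (rank 10332), its replicate 3 signal 13.4 at -487 bp (rank 21491) and its replicate 4 signal 12.6 at -85 bp (rank 26091).

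The other pooled summits had a partner in 1 replicate only. Cpr76Bc had a pooled signal of 33.2 at -406 bp (rank 6893) and the strongest replicate 4 signal of any member, 24.9 at -445 bp (rank 2204). Cpr65Ay had a pooled signal of 32.8 at 17 bp (rank 7149) and a replicate 4 signal of 23.9 at 32 bp (rank 2572), both in its 5' UTR. Cpr78Cb had a pooled signal of 35.0 at 117 bp (rank 5876) and a replicate 4 signal of 22.2 at 168 bp (rank 3374), also in its 5' UTR. For Cpr56F the pooled signal was 30 at 123 bp, in its intron, and the replicate 4 signal 20.1 at 59 bp. None of these 4 genes had a start-site summit in replicate 3. Cpr67Fb was the reverse case, with a pooled signal of 24.2 at -445 bp (rank 18225) and a replicate 3 signal of 13.0 at -348 bp, both in an exon of the antisense gene asRNA:CR45171, and no replicate 4 summit. No start-site summit of a Cpr gene was shared with another protein-coding gene in any list.

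Of the members found in a replicate list alone, or in both but not in the pooled list, the highest ranked in replicate 3 was Cpr47Ed (signal 21.5 at -225 bp, rank 6561). It was followed by Cpr65Au (signal 19.0 at -487 bp), Cpr100A (18.3 at -347 bp) and, lower down, Cpr78Ca (13.6 at 348 bp, in its coding sequence). In replicate 4 it was Cpr97Ea (signal 21.5 at -98 bp, rank 3887), and Cpr65Au had a signal of 15.9 there at 96 bp. Cpr73D had a signal of 11.9 in replicate 3, inside an intron of its neighbour Ogdh, and of 12.5 in replicate 4. The members nearest to the limit of 500 bp on the inside were Cpr65Az, at 498 bp in replicate 4, and Cpr72Ea, at -497 bp in replicate 3. The nearest on the outside were Cpr76Bd, at 527 bp from a pooled summit, Cpr65Au, at 530 bp from one, Cpr60D, at 539 bp from a replicate 3 summit, and Cpr64Aa, at 570 bp from a replicate 4 summit. Over all members, 9 of 13 distinct summits in replicate 3 and 12 of 21 in replicate 4 lay upstream of the start site. The upstream share was not measured for other genes, so it cannot be called a trait of Cpr genes. Within 200 bp of a start site the Cpr shares were 4.29% in the pooled list and 4.29% in replicate 3, against 19.1% and 26.7% of other genes, and 17.1% in replicate 4, against 15.5%.

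Beyond the window, IDR summits close to Cpr genes were few. The nearest IDR summit lay 3241 bp away at the closest member and 31139 bp away at the median, against a median of 25472 bp for other genes. The upper quartile ran the other way, with 45352 bp for Cpr genes and 61247 bp for other genes. Within 5000 bp there was an IDR summit for 3 Cpr genes (4.29%), against 17.3% of other genes. Cpr31A was the closest, at 3241 bp from a summit in an intron of Pen, which encodes an importin alpha (signal 96.5, rank 723). Cpr78Cc followed at 4022 bp, from a summit at the start of CG11309 that was also nearest to Cpr78Cb (9206 bp). Cpr92A stood 4818 bp from a summit in an intron of Dys, the dystrophin gene, and Cpr47Eg 10831 bp from a summit in the 5' UTR of Fbl6. At the far end, Cpr72Ea had none for 117932 bp. In replicate 3 the median distance to a summit was 1981 bp for Cpr genes and 674 bp for other genes, and in replicate 4 it was 1130 bp and 1385 bp.

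**Figure D3:**
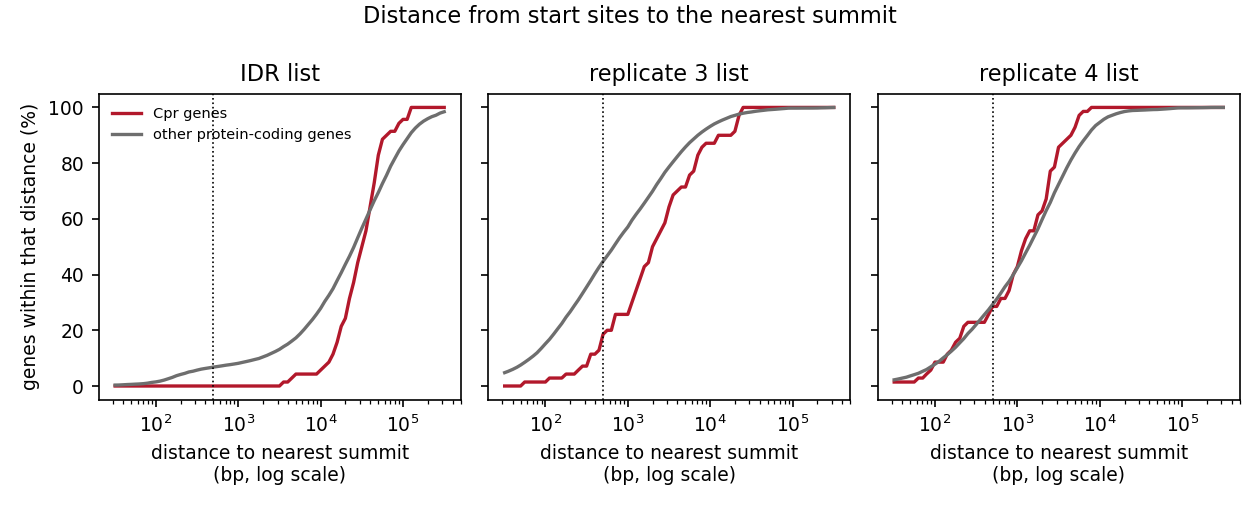
Share of genes whose start sites lie within a given distance (log scale) of the nearest summit in the IDR, replicate 3 and replicate 4 lists, for the 70 Cpr genes (red) and 13875 other protein-coding genes (grey); the dotted line marks 500 bp. The red curve stays at 0% up to 3241 bp in the IDR list and is below the grey one at 500 bp in replicate 3 (18.6% and 44.7%), while the curves meet there in replicate 4 (28.6% and 29.2%).

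Tandem arrays, taken as runs of at least 2 Cpr genes with neighbouring start sites at most 20 kb apart, numbered 11 and held 47 of the 70 genes. Together they spanned 149 kb. Those of 4 or more genes were the rows from Cpr47Ea to Cpr47Eg (7 genes over 25 kb of 2R), Cpr49Aa to Cpr49Ah (8 genes over 37.3 kb of 2R), Cpr64Aa to Cpr64Ad (4 genes over 6.20 kb of 3L), Cpr65Au to Cpr65Az (7 genes over 28.7 kb of 3L) and Cpr76Ba to Cpr76Bd (4 genes over 14.4 kb of 3L). None of the 11 arrays held an IDR summit between its first and last Cpr start site, and at the 0.0108 IDR summits per kb of the arms their span would hold 1.6. Relaxed summits did occur in them. The pooled list had 0.161 summits per kb inside arrays and 0.172 per kb on the 6 arms, and replicate 4 had 0.262 against 0.224. Replicate 3 had 0.141 against 0.224. The densities rest on 24 pooled summits, 39 of replicate 4 and 21 of replicate 3, and were not tested.

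**Figure D4:**
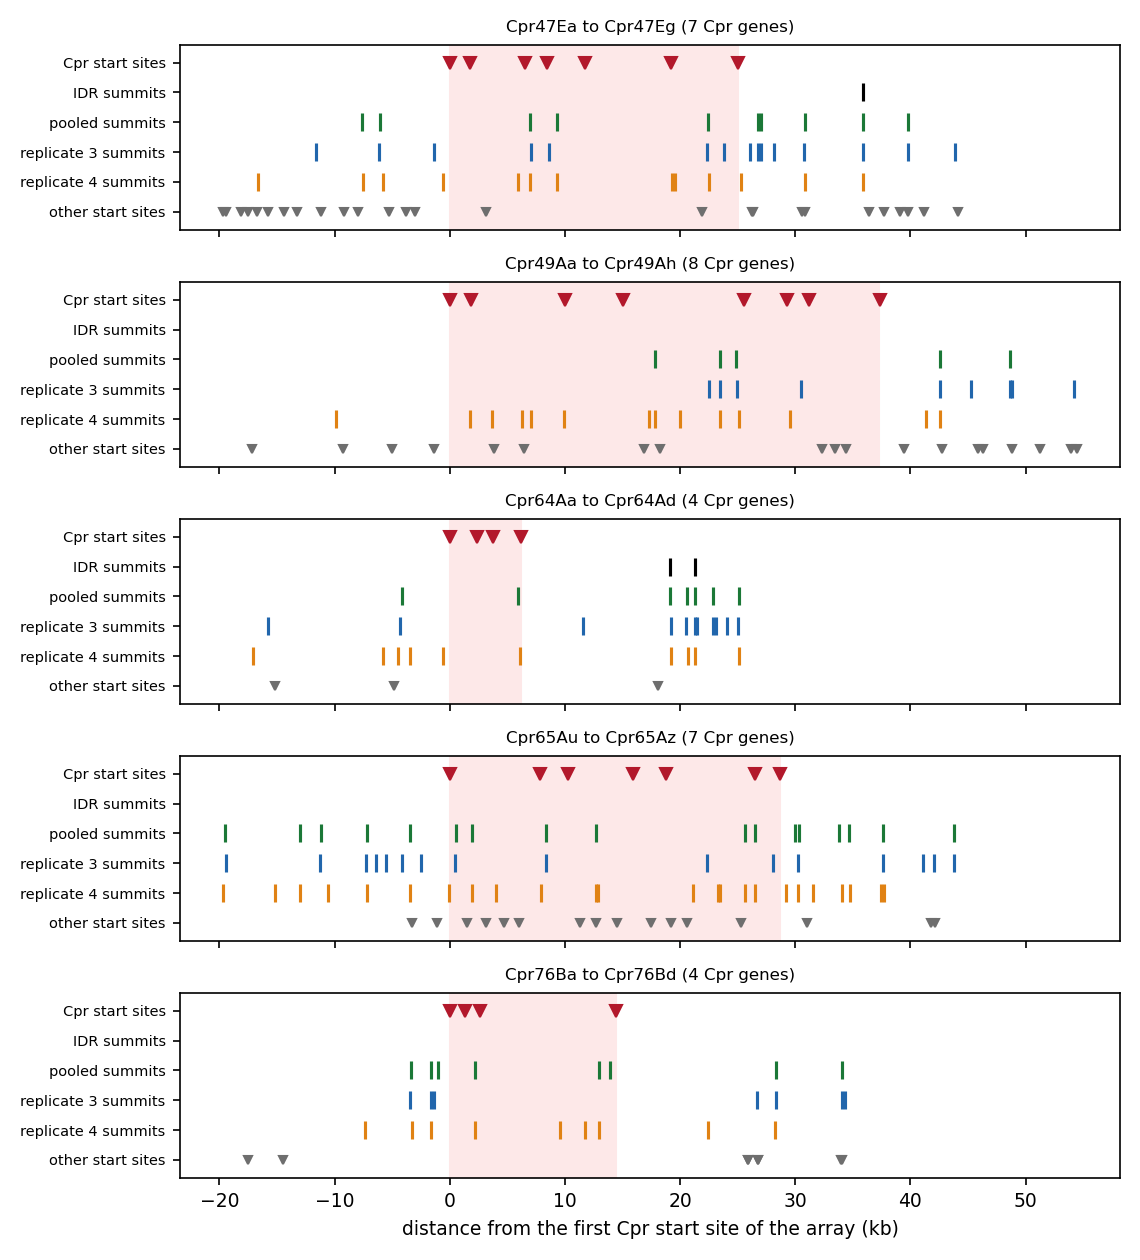
Summits of each list (ticks) around the 5 arrays of 4 or more Cpr genes, on a scale of distance from the first Cpr start site in kb, with Cpr start sites as red triangles and the first start site of each other protein-coding gene as grey triangles; the shaded stretch runs from the first to the last Cpr start site. IDR ticks appear only outside the shading, beside the 47E and 64A arrays, while pooled and replicate 4 ticks occur inside all 5 and replicate 3 ticks inside 3.

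The rows differed in their relaxed summits. In the 49A row 4 of 8 genes (Cpr49Ab, Cpr49Ac, Cpr49Ae and Cpr49Af) had a replicate 4 summit and 0 had one in replicate 3, with signals from 12.3 to 13.9, below the list's median of 15.2. Both end genes, Cpr49Aa and Cpr49Ah, had none. In the 47E row Cpr47Ec, Cpr47Ed, Cpr47Ef and Cpr47Eg had a relaxed summit and the end gene Cpr47Ea did not, its nearest lying 613 bp away in replicate 4. The other end gene, Cpr47Eg, had the lowest replicate 4 signal of any member, 11.9. In the 65A row both end genes, Cpr65Au and Cpr65Az, had a relaxed summit, as did Cpr65Av and Cpr65Ay. In the 64A and 76B rows it was only Cpr64Ad and Cpr76Bc, while Cpr64Aa, Cpr76Ba and Cpr76Bd had none. Genes in arrays and outside them had any relaxed summit in 44.7% (21 of 47) and 34.8% (8 of 23).

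The neighbours of the arrays were compared in the same way. Inside the arrays stood 22 other protein-coding genes, and 0 of them had an IDR summit, which allows up to 13.6%, beside 6.78% of all genes outside the Cpr set. Of the 22, 11 stood in the 65A row, and all of those but CG13297 were R&R family genes (Lcp65A genes and Acp65Aa). Those family members are counted again in the list of other R&R genes below. In the 20 kb on either side there were 91 other genes, and 5 had one (5.49%), namely Fbl6 beside the 47E row, CG12024 beside the 62B row, and AcCoAS, CG7632 and CG11309 beside the 78C row. Neighbouring genes can share a peak, so these counts rest on fewer separate places than genes.

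Other genes of cuticle biology were taken from 5 lists. Of 28 further genes of the R&R family under other names, such as the larval cuticle genes Lcp and the Ccp84A row, 2 had an IDR summit (7.14%, beside 6.78% of all genes outside the Cpr set). They were Lcp2 and Lcp3, which share 1 summit between them at 2R:8435061, at -276 bp from Lcp2 and -249 bp from Lcp3, with a signal of 175 (rank 259). That summit ranked 238 in replicate 3 and 318 in replicate 4, high in both. The pooled, replicate 3 and replicate 4 shares of this list were 21.4%, 14.3% and 32.1%. Of 50 other structural cuticle genes, among them the Tweedle family and the obst chitin-binding genes, 0 had an IDR summit (up to 6.00% allowed), and their 3 shares were 10%, 14.0% and 26.0%.

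The remaining lists held enzymes and regulators, to be read beside the pooled, replicate 3 and replicate 4 shares of 33.7%, 44.7% and 29.2% over all genes outside the Cpr set. Of 31 genes of chitin synthesis and turnover, Cht7 had an IDR summit (3.23%), at -162 bp with a signal of 66.8 and rank 1436 of 1445, and 32.3%, 45.2% and 32.3% had a pooled, replicate 3 and replicate 4 summit. Of 11 tanning genes 0 had an IDR summit (up to 27.3% allowed), and 54.5%, 27.3% and 36.4% had a summit in the 3 relaxed lists. Of 18 regulators of epidermis and cuticle, Eip75B, an ecdysone-induced nuclear receptor gene, had an IDR summit (5.56%) at -82 bp with a signal of 88.7, ranked 530 in replicate 3 and 9204 in replicate 4. Of those regulators 55.6%, 72.2% and 55.6% had a summit in the pooled, replicate 3 and replicate 4 lists, and they carried 3.33 start sites per gene on average, where other genes with several start sites had 51.2%, 65% and 43.5%. Differences between these lists were not tested.

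Cpr genes had fewer start sites than other genes. They had 1.10 start sites per gene, against 1.41, and 63 of 70 (90%) had a single one, against 73.4%. Among genes with a single start site, 0 of 63 Cpr genes and 4.91% of other genes had an IDR summit. The exact interval of 0 of 70 already reached 5.13%, so that difference lies within counting error. In the pooled list the shares were 9.52% and 27.3%, in replicate 3 they were 19.0% and 37.4%, and in replicate 4 they were 23.8% and 24.1%. Of the 7 Cpr genes with several start sites, 0 had an IDR summit, 2 a pooled, 1 a replicate 3 and 5 a replicate 4 summit, against 11.9%, 51.2%, 65% and 43.5% of other genes with several. By arm, the pooled share was 17.1% of the 35 Cpr genes on 3L, against 36.3% of other genes there, and 9.52% of the 21 on 2R, against 33.0%. In replicate 4 the shares were 28.6% on 3L, against 30.8%, and 38.1% on 2R, against 27.2%, while 0 of 5 members on 2L had a summit, against 30.1%.

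TATAAA, the core of the TATA box, stood on the gene's strand in the 50 bases before the start site of 42 of 70 Cpr genes (60%), against 10.3% of other genes and 10.6% of all protein-coding genes. All 42 had a single start site. Other genes with these letters in that place had fewer summits than the rest: 2.86% had an IDR summit, against 7.23% of other genes without them. With a single start site besides, the share was 2.01% (25 of 1245 other genes), and the 0 of 42 Cpr genes alike in both allows up to 7.14%. In the pooled list 7.14% of the 42 Cpr genes and 16.9% of those 1245 genes had a summit, in replicate 3 16.7% and 20.3%, and in replicate 4 26.2% and 18.8%. Among genes without core TATAAA, 0 of 28 Cpr genes had an IDR summit, and 17.9%, 21.4% and 32.1% had a pooled, replicate 3 and replicate 4 summit, against 35.2%, 47.0% and 30.2% of other genes. With a single start site besides, those 3 shares were 14.3%, 23.8% and 19% of 21 Cpr genes. Of the 8938 other genes alike in both, they were 28.8%, 39.7% and 24.8%. Without core TATAAA, the replicate 4 share of all 28 Cpr genes was thus above that of other genes. For the 21 with a single start site it was below that of other genes with 1. These splits were chosen after the promoter shares were seen, and the part of the core promoter in the low counts was not tested.

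**Figure D5:**
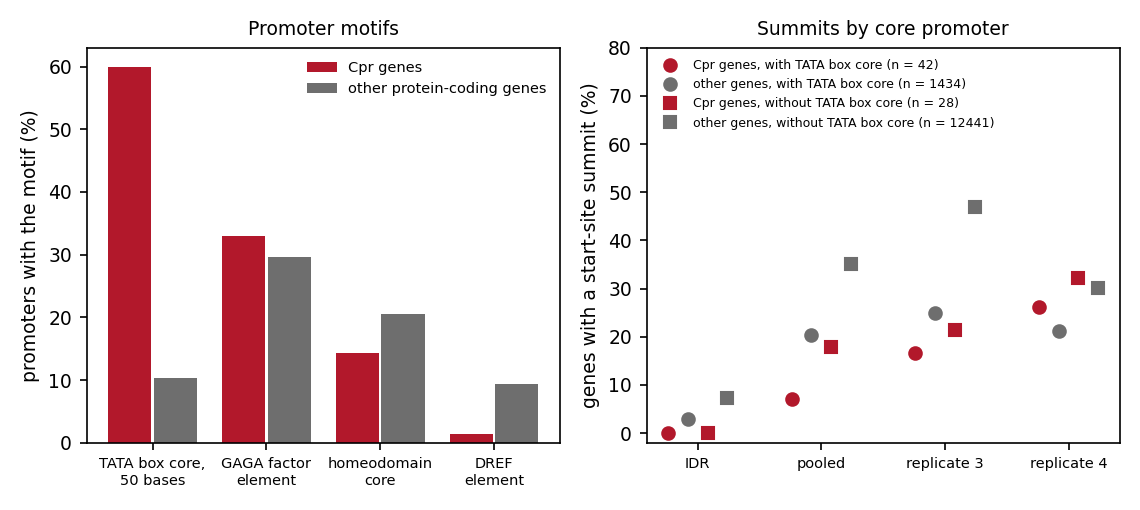
Left, share of promoters with a motif in Cpr genes and other protein-coding genes (the TATA box core in the 50 bases before the start site, the others anywhere in 300 bases on either strand); right, share of genes with a start-site summit in each list, by presence of the TATA box core. The TATA box core was in 60% of Cpr promoters and 10.3% of others, and other genes that have it showed fewer summits than other genes without it in all 4 lists.

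Further motifs were looked for on both strands in the 250 bases before and the 50 bases from the first start site on, and matches of different motifs may overlap. TATAAA anywhere in that stretch was in 70% of Cpr promoters, against 45.8% of all protein-coding promoters. The DREF element TATCGATA was in 1 of 70 (1.43%), against 9.36% of all. The homeodomain core TAATTA was in 14.3%, against 20.4%, and GAGAG, the letters of the GAGA factor, in 32.9%, against 29.7%. AACCGGTT, a palindrome bound by the epidermal factor Grainyhead, was in 0 of 70, against 0.753% of all, and AAGGTCA, a half-site of nuclear receptors, in 0 of 70, against 2.11%. Among other genes the IDR share was 7.98% with the DREF element and 6.66% without it.

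Base composition and repeats were measured over 500 bases on either side of the first start site. The share of G and C had a median of 45.2% in Cpr genes, against 42.4% in other genes, and was 44.3% in the 29 Cpr genes with a relaxed summit and 46.0% in the 41 without. The mean share of 50-base words in the stretch that occur more than once was 2.13% in Cpr genes and 2.46% in other genes. It was above 10% at Cpr65Ax1 (73.6%) and Cpr65Ax2 (71.5%), a pair of near copies, and 1.89% at Cpr67Fa1 and Cpr67Fa2, while the other 66 Cpr genes had 0%. Neither of the Cpr65Ax genes had a relaxed summit, and how the authors treated reads with several matches is not given in the sources used here.

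At the protein level, 53 of 70 Cpr genes matched a pattern of the R&R consensus in their longest annotated coding sequence. Lengths ran from 93 residues (Cpr60D) to 1231 (Cpr76Bd), with a median of 179. Of the 53 genes with the pattern, 7 had a pooled summit, 6 a replicate 3 summit and 15 a replicate 4 summit. Of the 17 without it, which include Cpr47Ed, Cpr73D, Cpr78Cb, Cpr97Ea and Cpr100A, these counts were 1, 7 and 5. These counts were not tested against each other, and are to be read beside the shares of 33.7%, 44.7% and 29.2% over other protein-coding genes. Outside the Cpr set 28 protein-coding genes matched the pattern, 25 of them on the list of other R&R genes, and 2 of the 28 had an IDR summit, again Lcp2 and Lcp3.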

How the data were processed

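CG15073-GFP was measured by ChIP-seq in 2 replicates of whole fly embryos, whose DNA was sheared by sonication per the labels. The authors deposited dm6 peak lists with a signal value, a -log10 q-value and a summit per peak. Not given in the sources used here are the scale of the signal, the aligner, the peak caller and the IDR threshold. Lists on dm3 were not used.

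Start sites came from the Ensembl release 115 annotation, and sequence from the Release 6 assembly. Genes counted if a summit was at most 500 bp from a start site, and shares have exact Clopper-Pearson 95% intervals. With 1 group, no test was run. The members, gene lists and motifs were chosen with earlier results of these data known. Named by rule were members with a pooled summit, with summits in both replicates, among the 5 best ranked in a replicate or the 5 nearest to an IDR summit, array end genes, and listed genes with an IDR summit. Others were named to account for all members. Windows, start sites, overlap rules, strength limits and single replicates were varied. Python 3.11.15, numpy 2.4.6, pandas 2.3.3, scipy 1.17.1 and matplotlib 3.10.9 were used, and the counting was tested on simulated data.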

Additional observations from a re-analysis of the deposited data

How the results depend on the processing

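The IDR count of Cpr genes stayed at 0 under the 5 alternatives that can by their rule add a summit (1000 bp, peak overlap, whole gene, and the strongest 1445 peaks of either replicate). The other 4 could only remove one and show nothing about the Cpr count. The share of other genes did fall under them, to 3.76% without overlapping windows, where the exact interval of the Cpr share reached 5.6%. The 1000 bp outcome already followed from the nearest IDR summit at 3241 bp. Those with the strongest 1445 peaks followed from the best ranks of 6561 in replicate 3 and 2204 in replicate 4. Of 29 alternative values for the relaxed lists, 14 stayed within the main interval, 15 moved out of it, and 25 were below the share of other genes. The other 4 were replicate 4 shares. With 200 bp the Cpr share was 4.29% (pooled), 4.29% (replicate 3), 17.1% (replicate 4) and 21.4% (either replicate), against 19.1%, 26.7%, 15.5% and 33.1% of other genes. With 1000 bp it was 22.9% (pooled), 42.9% (replicate 4) and 57.1% (either), against 45.1%, 42.4% and 69.8%. In the stronger part of each list by signal it was 5.71% (replicate 3) and 12.9% (replicate 4), against 32.0% and 19.5%. Over the whole gene with 500 bp on either side, an alternative chosen after seeing the data, it was 27.1% (pooled), 30% (replicate 3), 47.1% (replicate 4) and 62.9% (either), against 53.9%, 64.1%, 53.3% and 75.9%. Cpr genes are shorter, with a median length of 1093 bp against 2171 bp, and these whole-gene shares were not adjusted for length. The share in either replicate was 28.6% without replicate 3 and 18.6% without replicate 4, against 29.2% and 44.7%. The last 2 replicate 4 shares at or above those of other genes were 27.1% with the 5'-most start site (25.3% of other genes) and 29.7% without overlapping windows (26.5%). Without overlapping windows the other shares were 12.5% (pooled), 18.8% (replicate 3) and 43.8% (either), against 26.1%, 34.9% and 46.9%. No paired analysis was possible because the series holds 1 group. With 0 of 70 genes, an IDR share below 4.29% is not excluded, and read depth is unknown.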
